A study of Mus musculus with 12 samples.

Results

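The genes described here encode proteins of the red cell membrane, several of which carry blood group antigens. They are Slc4a1, Sptb, Ank1, Epb42, Rhag, Rhd, Ermap and Kel, and they were found as the rows of the deposited gene expression table that carry these names. Each name matched 1 row, which gave 8 of the 34745 genes of the table. The table holds 12 libraries of femoral bone marrow RNA, each from a male mouse of the outbred ICR strain, and 4 groups of 3 mice. Normal mice were given saline only. The model group received cyclophosphamide at 80 mg/kg/day on days 5 to 7 of the study, which damages dividing marrow cells and lowers the number of white blood cells. To the same cyclophosphamide, the QJSB group added the Qi-Jing-Sheng-Bai granule, a herbal formula given by mouth at 3 g/kg/day. The leucogen group added leucogen, a drug used against low white cell counts, by mouth at 20 mg/kg/day. Both drugs were given for 1 week, so every group other than normal carried cyclophosphamide and no group received a drug alone.

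A red cell keeps its shape through a net of spectrin beneath its membrane. The net hangs on ankyrin, and ankyrin holds it to the anion exchanger band 3, which trades bicarbonate for chloride and is the most abundant protein of the membrane. The Rh proteins join this assembly, and proteins such as Kell are displayed on the outside. In the marrow these genes are read in maturing erythroblasts, and several serve as marks of the later steps of red cell formation. Kel can also be read in megakaryocytes, whose markers are given further on.

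The 8 genes lie on different chromosomes except for Rhd and Ermap, which are both on chromosome 4 and far apart. In GRCm38 and the GENCODE M21 annotation, all are protein coding, with the whole gene spans given here. Slc4a1 (ENSMUSG00000006574) is at chr11:102348824-102366203, Sptb (ENSMUSG00000021061) at chr12:76580488-76710547 and Epb42 (ENSMUSG00000023216) at chr2:121017891-121037072, all on the minus strand. Ank1 (ENSMUSG00000031543) is at chr8:22974844-23150497, Rhag (ENSMUSG00000023926) at chr17:40811126-40840754 and Rhd (ENSMUSG00000028825) at chr4:134864536-134896172, all on the plus strand. Ermap (ENSMUSG00000028644) is at chr4:119175457-119190011 and Kel (ENSMUSG00000029866) at chr6:41686330-41704339, both on the minus strand.

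Since the 8 genes moved together, as given further on, their promoters were searched for the letters that the erythroid factors of the GATA family and KLF1 are known to bind. RefSeq promoters (GRCm38.p6) were on hand for 6 of the 8 genes, and Slc4a1 and Ank1 had no entry. A GATA motif, in any of 4 forms on either strand, stood within the 250 bases before the start site of 5 of these 6 genes, against 26.5% of 32851 promoters. The form AGATAA was found in 3 of the 6 (9.99% of all promoters) and TGATAA in 3 (7.94%), with Kel holding both, while AGATAG (7.71%) and TGATAG (6.35%) were found in 0. The GATA motif of Epb42 stood 226 to 221 bases before its RefSeq start. That start lies inside the GENCODE span of Epb42, which ends at 121037072, and the 250 bases before it are chr2:121036878-121037127. The RefSeq and GENCODE starts also differ for Rhag, Ermap and Kel, and all distances given here count from the RefSeq start. Within the nearest 100 bases, a window chosen after the positions were seen, 4 of the 6 genes held a GATA motif, against 10.4% of all promoters. They were Rhag, Rhd, Ermap and Kel. Their stretches of 100 bases, which end at the base before the RefSeq start site, are shown on the strand of the gene with the GATA motif in capitals. TTATCA is TGATAA read from the other strand.
Rhag: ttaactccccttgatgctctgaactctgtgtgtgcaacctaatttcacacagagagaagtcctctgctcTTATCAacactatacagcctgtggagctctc
Rhd: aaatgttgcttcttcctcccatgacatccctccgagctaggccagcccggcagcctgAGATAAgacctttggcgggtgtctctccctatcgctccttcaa
Ermap: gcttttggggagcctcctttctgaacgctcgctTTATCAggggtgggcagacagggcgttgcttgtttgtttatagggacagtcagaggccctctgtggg
Kel: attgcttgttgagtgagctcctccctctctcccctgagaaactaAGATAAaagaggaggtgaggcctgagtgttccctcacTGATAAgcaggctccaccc
They come from chr17:40811049-40811148 (Rhag, plus strand), chr4:134864436-134864535 (Rhd, plus strand), chr4:119189996-119190095 (Ermap, minus strand) and chr6:41704326-41704425 (Kel, minus strand). Kel held an AGATAA from 56 to 51 and a TGATAA from 19 to 14 bases before its start, and the motifs of Rhag, Rhd and Ermap began 31, 43 and 67 bases before theirs. Sptb had no GATA motif in its 250 bases. It was the gene of the 6 with CCNCNCCC, the general form of the KLF1 motif, which 45.9% of all promoters hold. Sptb had 3 matches on either strand, of which 2 overlap, and the nearest is in capitals in its stretch of 100 bases at chr12:76710548-76710647 (minus strand). The stricter CCACACCC was in 0 of the 6 and in 3.2% of all promoters.
Sptb: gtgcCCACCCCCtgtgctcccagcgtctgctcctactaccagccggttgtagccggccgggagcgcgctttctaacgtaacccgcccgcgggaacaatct
These matches describe the letters of the windows and do not show that a factor binds there.

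Library totals ran from 11172547 to 18545198 counts, with the lowest in the leucogen group (11172547 to 14766064). Mice of a group differed beyond counting error (chi-square of 10.9 to 107 per degree of freedom). The libraries of a group are separate mice, and the p-values measure the spread between these mice. The table heads its columns Blank, Model, Positive and Stilbene. Apart from Model, these were matched to groups by meaning and elimination, Blank to normal, Positive to leucogen and Stilbene to QJSB. This reading was compared with mean normalized counts listed for 3 comparisons of the groups, and 300 of 300 listed genes lay within 1% of the mean of the matching columns in each, against at most 10 for any other set of columns.

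Levels are given as CPM, counts scaled with TMM factors to the same total per library, for comparison of a gene between libraries, and as FPKM, per length of the transcript, for comparison between genes. In the normal marrow the 8 genes together held 0.599% ± 0.073 (SD, n = 3) of all counts. Slc4a1 stood highest per length, at 478 ± 72.7 FPKM (SD, n = 3). Rhag followed at 110 ± 9.35, Sptb at 91.9 ± 13.5, Rhd at 78.1 ± 6.02 and Kel at 73.5 ± 8.71 FPKM. Epb42 was at 52.9 ± 3.28, Ermap at 41.6 ± 2.96 and Ank1 at 25.0 ± 2.46 FPKM. Each gene was above the next in 3 of 3 normal libraries, but the ranges of Rhag and Sptb, of Sptb and Rhd, and of Rhd and Kel overlapped. So Slc4a1 was apart from the others, the 4 genes after it formed a graded run, and Epb42, Ermap and Ank1 were apart from that run and from each other.

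In all 3 groups given cyclophosphamide, the 8 genes were far below normal. Their share of all counts was 0.0158% ± 0.0142 (SD, n = 3) in model, 0.0170% ± 0.0118 in QJSB and 0.00792% ± 0.00665 in leucogen. A gene was called where edgeR's quasi-likelihood test gave a change of more than 1.5-fold with a Benjamini-Hochberg adjusted p under 0.05 over all genes tested. By this rule 8 of 8 genes were lower in model than in normal, where 19% of the 14752 genes tested were called lower and 16.1% higher. The model and normal libraries did not overlap for 8 of 8 genes, against 28.2% of all genes tested that lay lower without overlap. The median log2 fold change of the 8 was -5.51, and that of all genes tested 0.02. Scaling by total counts shifted the median of all genes by 0.12 and moved the share of lower genes among those called from 54.2% to 43.7%, with 8 of 8 genes still called. Marrow was sequenced in bulk, so fewer red cell precursors and less of this RNA in each of them cannot be told apart.

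**Figure D1:**
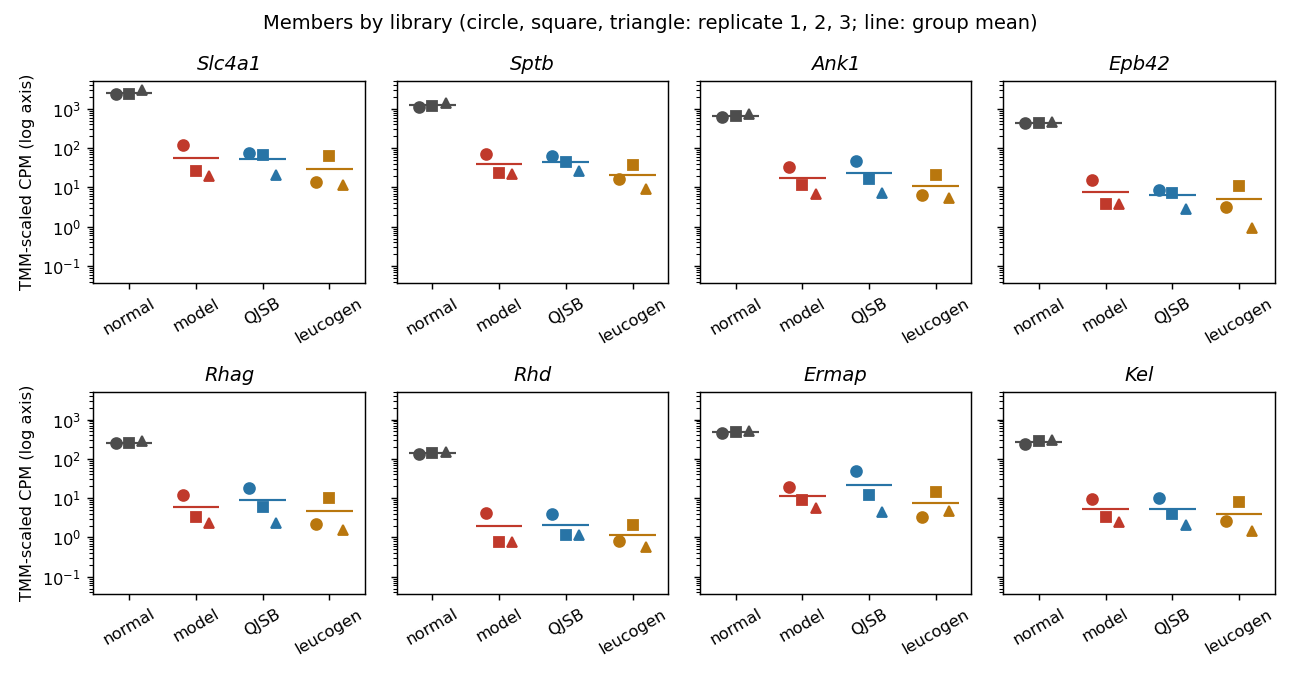
TMM-scaled CPM of each gene on a log axis in the 12 libraries, with circle, square and triangle for replicates 1, 2 and 3 of a group and a line for the group mean. The normal libraries stand far above the 9 others in every panel, and model 1, QJSB 1 and leucogen 2 are the highest of their groups.

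Among the anchors of the skeleton, Slc4a1, which encodes band 3, had 2394, 2327 and 2983 CPM in the normal libraries and 119, 26.7 and 19.96 CPM in the model libraries. It had 73.6, 68.3 and 21.0 CPM in QJSB and 13.6, 62.5 and 11.9 CPM in leucogen. The lowest normal library was above the highest of the 9 others, which was model 1, and the 9 overlapped across their groups. Slc4a1 was 46.7-fold lower in model than in normal (log2 fold change -5.54, SE 0.80, edgeR adjusted p = 0.00242), the largest adjusted p of the 8. The fold was 47.4 in QJSB and 86.4 in leucogen, each against the same normal libraries.

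Sptb encodes the beta chain of red cell spectrin, the main strut of the net. Its level was 1084, 1173 and 1402 CPM in normal and 73.0, 23.8 and 22.4 CPM in model. QJSB had 63.3, 45.7 and 26.1 CPM, and leucogen 16.4, 37.8 and 9.02 CPM. Of the 8 genes, Sptb had the smallest fitted fall in model, by 30.9-fold (log2 fold change -4.95, SE 0.54, edgeR adjusted p = 0.000664). Its normal libraries were again apart from all others, and those of model, QJSB and leucogen overlapped.

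Ank1 encodes erythroid ankyrin, the link between spectrin and band 3. It was at 614, 647 and 725 CPM in normal, at 33.4, 11.5 and 6.94 in model, at 48.4, 16.0 and 7.34 in QJSB and at 6.50, 20.9 and 5.41 CPM in leucogen. It was 38.4-fold lower in model than in normal (log2 fold change -5.26, SE 0.63, edgeR adjusted p = 0.00109). Ank1 and Sptb are also read in skeletal muscle, and 10 muscle markers were followed for that reason. Their summed level was 10.1 to 260 CPM in normal, 23.8 to 139 in model, 24.9 to 129 in QJSB and 14.7 to 99.96 CPM in leucogen. The highest muscle sum and the highest Ank1 were both in normal 3, and none of the 10 was at 0 in a whole group. Of the 10 muscle markers, 0 were called between model and normal by edgeR, by edgeR at an unadjusted p under 0.05 or by DESeq2. The part of muscle RNA in the levels of Ank1 and Sptb was not tested.

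Epb42 encodes a palmitoylated relative of the transglutaminases that has lost enzyme activity and steadies the tie of band 3 to ankyrin. It had 427, 448 and 472 CPM in normal, and 15.5, 3.68 and 3.85 CPM in model. QJSB had 8.64, 7.40 and 2.75 CPM, and leucogen 3.25, 10.7 and 0.95 CPM. Leucogen 3 was the lowest library, with 10 counts. Epb42 was 58.5-fold lower in model than in normal (log2 fold change -5.87, SE 0.64, edgeR adjusted p = 0.000747).

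The Rh proteins form a complex in the membrane that passes ammonia or carbon dioxide and is tied to the ankyrin sites. Rhag, the Rh-associated glycoprotein without which the complex is not displayed, was at 249, 247 and 281 CPM in normal and at 12.2, 3.33 and 2.28 CPM in model. It was at 18.3, 6.004 and 2.33 CPM in QJSB and at 2.14, 10.2 and 1.52 CPM in leucogen. Rhag was 43.5-fold lower in model than in normal (log2 fold change -5.44, SE 0.65, edgeR adjusted p = 0.00112). Its partner Rhd, the mouse counterpart of the human genes for the Rh antigens, had 130, 137 and 148 CPM in normal and 4.16, 0.78 and 0.76 CPM in model. QJSB had 3.94, 1.17 and 1.16 CPM, and leucogen 0.79, 2.10 and 0.57 CPM. Rhd had the deepest fitted fall of the 8 in model, by 71.6-fold (log2 fold change -6.16, SE 0.62, edgeR adjusted p = 0.000471), and in leucogen, by 113-fold. It was also read at the lowest depth, with 11 to 72 counts in the model libraries and 6 to 29 in the leucogen libraries.

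Ermap and Kel carry other blood group systems. Ermap, the butyrophilin-like protein of the Scianna group, was at 460, 493 and 518 CPM in normal and at 18.8, 8.84 and 5.66 CPM in model. In QJSB it was at 49.1, 11.7 and 4.34 CPM, and in leucogen at 3.25, 14.4 and 4.75 CPM. QJSB 1 was the highest of the 9 libraries given cyclophosphamide and QJSB 3 among the lowest. Ermap was 44.3-fold lower in model (log2 fold change -5.47, SE 0.46, edgeR adjusted p = 0.000180), the smallest adjusted p of the 8. Kel, the Kell glycoprotein, a zinc peptidase of the cell surface, had 239, 282 and 296 CPM in normal, and 9.59, 3.33 and 2.51 CPM in model. It had 10.2, 4.02 and 2.02 CPM in QJSB and 2.61, 7.91 and 1.42 CPM in leucogen. Kel was 52.9-fold lower in model than in normal (log2 fold change -5.72, SE 0.53, edgeR adjusted p = 0.000314).

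QJSB and leucogen were each set against the same normal libraries, so these comparisons are not independent of the one above. In QJSB 8 of 8 genes were called lower and 8 of 8 did not overlap normal, where 19.9% of the 14817 genes tested were called lower, 18% called higher and 29.4% lower without overlap. The log2 fold changes ran from -6.16 for Epb42 to -4.49 for Ermap, with a median of -5.22, and the edgeR adjusted p from 3.7e-05 to 0.00518. In leucogen 8 of 8 genes were again called lower and apart from normal, against 19.8% of 14637 genes called lower, 17.8% called higher and 31.4% lower without overlap. There the log2 fold changes ran from -6.82 for Rhd to -5.75 for Rhag, with a median of -6.01, and the edgeR adjusted p from 3.2e-06 to 0.00417. The median over all genes tested was 0.02 in QJSB and -0.01 in leucogen.

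With 3 libraries in a group, 1 library set much of each fold. Model 1, QJSB 1 and leucogen 2 were the highest of their groups for each of the 8 genes. The mean log2 CPM of the 8 was 4.42 in model 1, against 2.68 and 2.33 in the other model libraries, 4.52 in QJSB 1 against 3.39 and 2.31, and 3.81 in leucogen 2 against 2.08 and 1.56. Without model 1 the median fall was 93.4-fold in place of 45.5, without leucogen 2 it was 135-fold in place of 64.6, and without QJSB 1 it was 61.7-fold in place of 37.1. All 8 genes were called in each of these. By the mean log2 CPM over a list of genes, the same libraries were again the highest of their groups. This mean was 4.57, 4.69 and 3.94 for 12 regulators and receptors of early red cell precursors. For 14 globin and haem genes it was 5.43, 4.94 and 4.85. It did not hold for every gene of these lists, as Gata1 was highest in leucogen 1 and Alas2 in QJSB 2 within their groups.

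The drug groups were next compared with model and with each other, which asks whether either drug moved these genes under cyclophosphamide. In QJSB against model, 0 of 8 genes were called, 0 had an unadjusted p under 0.05 in edgeR and 0 were called by DESeq2. The same comparison called 0% of all 14486 genes lower and 0% higher in edgeR, with 723 genes at an unadjusted p under 0.05 and 8 genes called by DESeq2. With the replicate number as a block, which the deviations of the libraries allow here, 18 genes were called, of which 0 were among the 8. The log2 fold changes ran from -0.32 for Epb42 to 0.95 for Ermap, with a median of 0.14 and edgeR adjusted p from 0.823 to 0.991. The 95% intervals were wide. That of Slc4a1 ran from -1.91 to 1.81 around -0.05, that of Sptb from -1.06 to 1.38 around 0.16, and that of Ermap from -1.18 to 3.07 around 0.95, so changes of more than 2-fold in either direction remain within them.

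**Figure D2:**
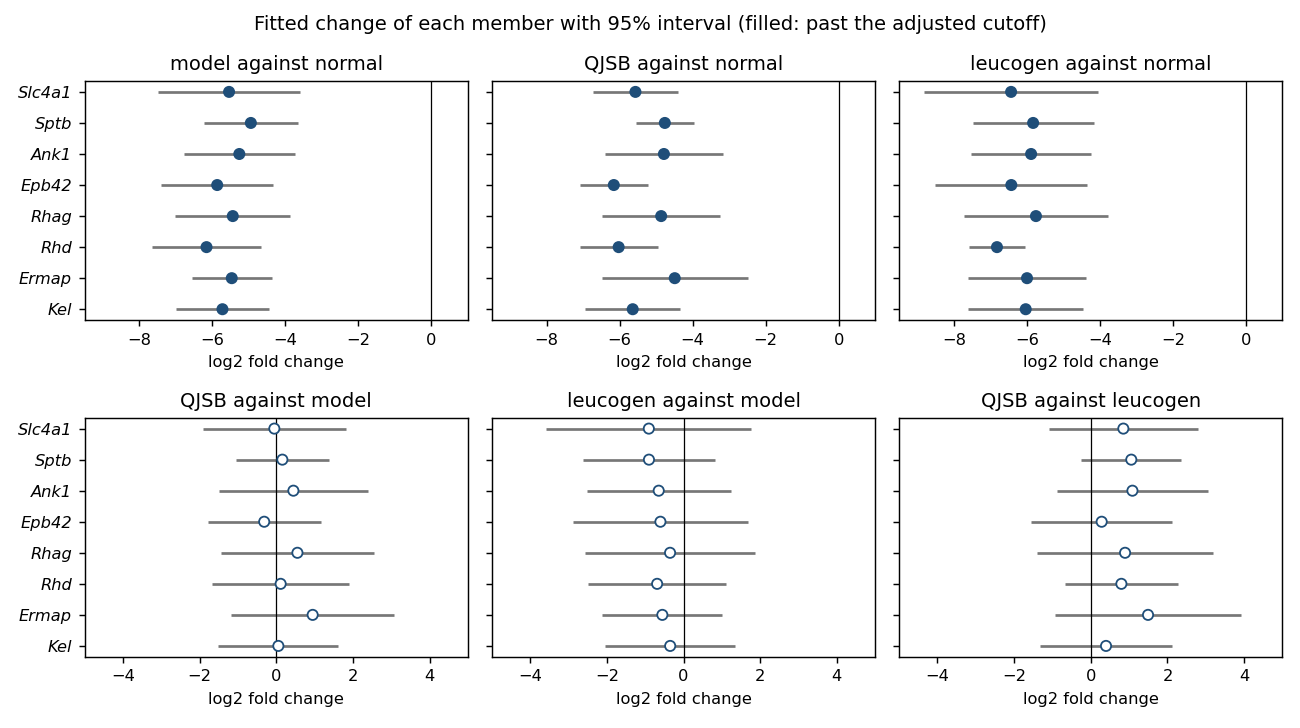
Fitted log2 fold change of each gene in the 6 comparisons, with the 95% interval as a bar and a filled point where the adjusted cutoff was passed. All points are filled and lie between -6.82 and -4.49 in the upper row, against normal, and all are open with intervals across 0 in the lower row, among the groups given cyclophosphamide.

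Leucogen lay below model for 8 of 8 genes in the fitted values, from -0.91 for Slc4a1 to -0.35 for Kel, with a median of -0.63. In edgeR 0 of 8 were called (adjusted p from 0.379 to 0.803), 0 had an unadjusted p under 0.05, and DESeq2 called 0. The background was 11.5% of 14184 genes called lower and 11.6% called higher. By total counts the lower share of all called genes moved from 49.9% to 69.8% and the median of all genes by -0.17, with 0 of the 8 called. Leaving out model 1 turned the fitted difference of 7 of the 8 genes from lower to higher, with a median of 0.40. The interval of Slc4a1 ran from -3.58 to 1.76 and that of Rhd from -2.50 to 1.12.

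QJSB lay above leucogen for 8 of 8 genes, from 0.28 for Epb42 to 1.49 for Ermap, with a median of 0.87. EdgeR called 0 of 8 (adjusted p from 0.188 to 0.807) and gave 0 an unadjusted p under 0.05. DESeq2 also called 0, with Sptb alone at an unadjusted p under 0.05 (DESeq2 adjusted p = 0.0844). Of 14266 genes, 11.7% were called lower and 12.9% higher. This comparison turned on leucogen 2. Without it, Slc4a1 (log2 fold change 2.04, edgeR adjusted p = 0.0411) and Sptb (1.77, edgeR adjusted p = 0.0304) passed the cutoff, and without QJSB 1 the median difference was 0.01. These 3 comparisons share libraries with each other.

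The fitted falls of the 8 genes differed in size. To set this out, the log2 FPKM of each gene was taken relative to the mean of the 8 in the same library, which removes what the 8 have in common. Sptb stood higher against the others than in normal by 0.72 in model, 0.77 in QJSB and 0.48 in leucogen, and Ank1 by 0.31, 0.41 and 0.38. Both can also be read in skeletal muscle, and the part of muscle RNA in these differences was not tested. Rhd stood lower, by -0.79, -0.69 and -0.57, and Epb42 by -0.33, -0.71 and -0.56. For these 4 genes no treated library overlapped the normal ones in any of the 3 groups. Kel stood lower without overlap in QJSB (-0.34), and in leucogen Slc4a1 stood lower (-0.31) and Rhag higher (0.24) without overlap. Each such difference had an exact two-sided permutation p of 0.1, and 0.16 after Benjamini-Hochberg adjustment over 24 tests. As 0.1 is the smallest p that 3 libraries against 3 can give, none could pass a threshold of 0.05. These tests therefore cannot decide whether the genes fell by different amounts. The 3 comparisons share the normal libraries, and a value relative to the mean of the 8 is not independent of the other genes.

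**Figure D3:**
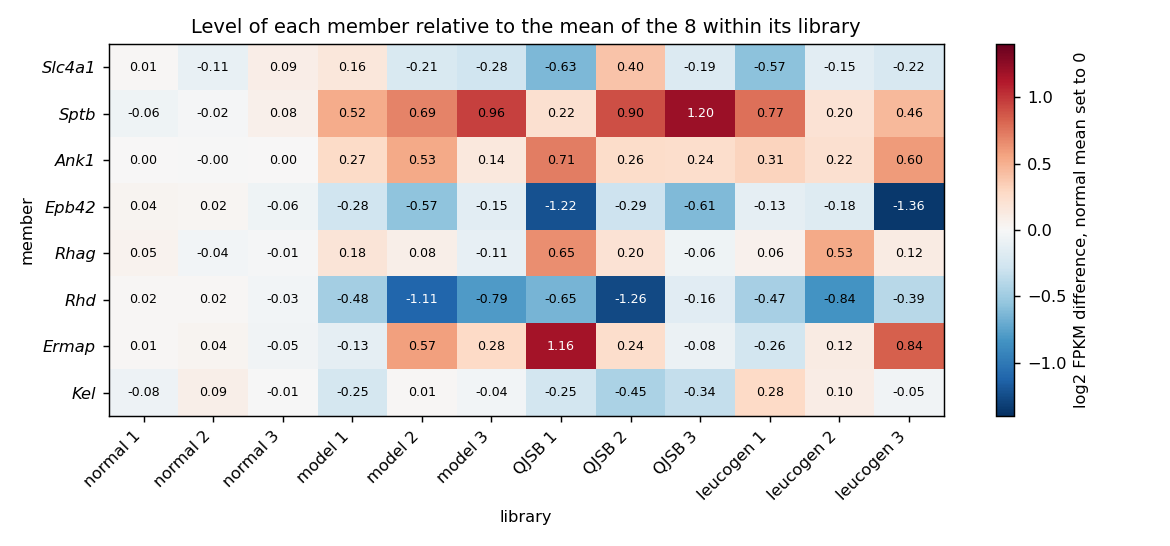
Level of each gene relative to the mean of the 8 in the same library, in log2 FPKM with the mean of the normal libraries set to 0. The 9 columns of model, QJSB and leucogen are red for Sptb, from 0.20 to 1.196, and blue for Rhd, from -1.26 to -0.16, while the normal columns stay near 0.

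The values farthest from normal in this plot were Epb42 in leucogen 3 (-1.36), Rhd in QJSB 2 (-1.26), Epb42 in QJSB 1 (-1.22), Sptb in QJSB 3 (1.196) and Ermap in QJSB 1 (1.16). Slc4a1 had its lowest relative level of the 12 libraries in QJSB 1 (-0.63). Set against the counts of Slc4a1, a ratio chosen after the values were seen, Ermap had 66.8 counts per 100 counts of Slc4a1 in QJSB 1 (910 against 1363). It had 17.2 and 20.7 in the other QJSB libraries, 17.4 to 21.2 in normal, 15.7 to 33.1 in model and 23.1 to 40 in leucogen. In model 1, a library of similar total level of the 8 genes, the ratio was 15.7 (325 against 2064).

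Across the 9 libraries given cyclophosphamide, the 28 pairs of genes had correlations of log2 CPM from 0.74 (Epb42 and Ermap) to 0.99 (Ank1 and Rhag), with a median of 0.92. Per length, Slc4a1 remained the highest in every library, at 11.5 ± 11.96 FPKM in model, 10.2 ± 5.74 in QJSB and 5.22 ± 5.01 in leucogen (SD, n = 3). The ranges of all neighbours in the order, Slc4a1 and the next gene included, overlapped in each of these groups. Sptb was next in model (3.31 ± 2.56 FPKM), above Rhag in 3 of 3 libraries, whereas Rhag had been above Sptb in 3 of 3 normal libraries. In QJSB (3.92 ± 3.96 against 3.46 ± 1.65 FPKM) and in leucogen (1.86 ± 1.91 against 1.53 ± 1.05 FPKM) the mean of Rhag was above that of Sptb as in normal, but in 1 of 3 libraries.

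Among the genes whose log2 CPM was most like the mean of the 8 over the 12 libraries were Tspo2 (r = 0.998), Tspan33 (0.997), Paqr9 (0.996) and Car2 (0.996). Car2 encodes a carbonic anhydrase that makes the bicarbonate that band 3 carries. Of 9462 genes compared, 215 had r over 0.95. These values are set mostly by the gap between normal and the other groups. Over the 9 other libraries alone these 4 genes had r of 0.982, 0.976, 0.961 and 0.959.

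The rest of the skeleton was followed in a list of 12 other genes. In model against normal 7 were called lower and 0 higher, beside 19% and 16.1% over all genes tested. The median log2 fold change of the list was -0.78. Dmtn (dematin, which bundles actin, -5.86), Tmod1 (which caps the short actin filaments, -5.64), Add2 (the beta chain of adducin, -4.74) and Epb41 (which binds spectrin to actin, -2.69) fell, with Add1 (-0.78) and Mpp1 (-0.70). These genes were named after their values were seen. Of the most abundant of the list, Actb (beta-actin) was at 0.50, Stom (stomatin) at -0.21 and Add3 (the gamma chain of adducin) at -0.06, and these did not pass. Dmtn, Tmod1 and Add2, from -5.86 to -4.74, lay near the range of the 8, and Epb41, Add1 and Mpp1 fell less.

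**Figure D4:**
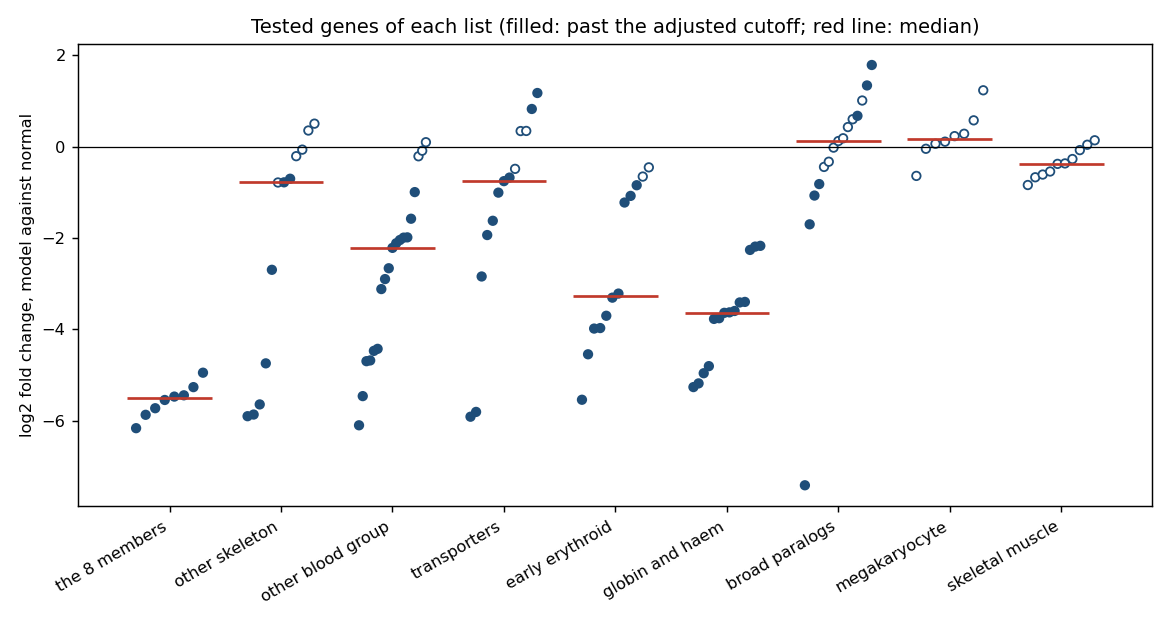
Log2 fold change of model against normal for every tested gene of each list, with a filled point where the adjusted cutoff was passed and a red line at the median. The 8 genes lie between -6.16 and -4.95. The lists of other skeleton and blood group genes spread from that depth up to about 0, with Actb and Tpm3 of the skeleton list above 0. The megakaryocyte and muscle lists lie around 0 with no filled point.

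Of 21 other genes of blood group systems, 19 were tested, 16 were called lower in model than in normal and 0 higher (median -2.21). Of all genes tested, 19% were called lower and 16.1% higher. Aqp1, the water channel of the Colton system, fell from 222 ± 20.2 to 5.59 ± 4.15 FPKM (-5.46, SE 0.51, edgeR adjusted p = 0.000328). Cd47, a surface protein of most blood cells that is tied to the Rh complex, was at 201 ± 14.5 and 204 ± 24.4 FPKM (-0.09, edgeR adjusted p = 0.673). Cd44, the adhesion receptor of the Indian system, was at 32.5 ± 0.63 and 30.5 ± 1.41 FPKM (-0.21, edgeR adjusted p = 0.156). QJSB and leucogen against normal each called 16 of the 19 lower and 0 higher as well. There 19.9% and 19.8% of all genes tested were called lower.

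The same list was compared between the groups given cyclophosphamide. In QJSB against model 0 of 18 tested were called and 0 had an unadjusted p under 0.05 in edgeR, with 0 called by DESeq2. In leucogen against model 2 were called lower and 2 higher of 18, a share close to the 11.5% and 11.6% over all genes. Cd55, a guard against complement that carries the Cromer antigens, was at 3.46 ± 1.26 FPKM in model and 14.4 ± 1.49 in leucogen (log2 fold change 2.23, edgeR adjusted p = 0.00177). Xk, the partner of Kel in the membrane, was at 9.54 ± 1.17 and 12.8 ± 0.67 FPKM (0.60, edgeR adjusted p = 0.0164). Gypc, glycophorin C, was lower in leucogen (-0.71, edgeR adjusted p = 0.0314), as was Bsg, basigin of the Ok system (-1.003, edgeR adjusted p = 0.0333). These 4 are named because they were called. Over 16 alternatives the lower count ran from 0 to 4 and the higher count from 1 to 3. The lower count was 0 without model 1, model 3, leucogen 1 or leucogen 3, and the higher count was 1 without model 1, leucogen 2 or leucogen 3. While Kel fell by 5.72 on the log2 scale in model against normal, its partner Xk fell by 1.58, from 26.2 ± 2.15 FPKM.

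Of 13 membrane transporters and carbonic anhydrases of red cells, 8 were called lower and 2 higher in model than in normal (median -0.75). The shares over all genes tested were 19% lower and 16.1% higher. The carbonic anhydrases Car2 (528 ± 50.8 to 10.5 ± 7.68 FPKM, log2 fold change -5.81) and Car1 (210 ± 40.8 to 3.88 ± 2.65 FPKM, -5.91) fell about as far as Slc4a1. Slc16a1, a lactate carrier, fell by 1.93. Slc2a1, a glucose carrier, rose from 1.82 ± 0.28 to 3.46 ± 1.30 FPKM (0.83, edgeR adjusted p = 0.0484). The count of higher genes was 1 in place of 2 under 6 of 16 alternatives. These included each fit without 1 of the normal libraries and the fit without model 3.

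Relatives of the 8 with use in other tissues were listed to see whether a fall was shared by the gene families. Of 20 such paralogs 15 were tested in model against normal, with 4 called lower and 3 higher (median 0.12). Over all genes tested 19% were called lower and 16.1% higher, so these counts do not set the paralogs apart. Sptbn1, the beta spectrin of most other cells, rose from 21.2 ± 0.88 to 36.8 ± 2.43 FPKM (0.68, edgeR adjusted p = 0.00320), while Sptb fell. Sptan1, its alpha partner, was at 16.6 ± 0.73 and 24.3 ± 2.25 FPKM (0.43), and Slc4a2, an anion exchanger of wide use, at 3.45 ± 0.16 and 4.06 ± 0.92 FPKM (0.12), neither past the cutoff. Epb41l2 fell from 20.5 ± 0.45 to 12.7 ± 1.26 FPKM (-0.82, edgeR adjusted p = 0.00122). The deepest fall was in Btn1a1, the butyrophilin related to Ermap, named after its values were seen, with 54, 55 and 101 counts in normal and 1, 0 and 0 in model.

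Among 12 regulators and receptors of early red cell precursors, 10 were called lower in model than in normal and 0 higher, with a median of -3.26. In this comparison 19% of all genes tested were called lower and 16.1% higher. Klf1, the factor that turns on many genes of late red cells, went from 80.8 ± 3.93 to 1.92 ± 1.94 FPKM (log2 fold change -5.54, edgeR adjusted p = 0.000763). Tfrc, the transferrin receptor, fell from 258 ± 14.7 to 30.5 ± 10.98 FPKM (-3.22, edgeR adjusted p = 5.4e-05), Bcl11a by 1.08 and Nfe2 by 0.84. All 14 globin and haem genes in the table were called lower (median -3.63). Alas2, the erythroid enzyme that starts haem synthesis, fell by 5.18, and the globins Hbb-bt, Hbb-bs and Hba-a1 by 5.26, 3.75 and 4.96. The globin copies are nearly identical, so their single values are uncertain. Megakaryocytes share early precursors with red cells, and of 8 of their markers 0 were called in model against normal by edgeR, with 0 at an unadjusted p under 0.05 and 0 called by DESeq2 (median 0.17). Their summed level was 204 to 475 CPM in normal, 220 to 559 in model, 300.3 to 343 in QJSB and 138 to 376 in leucogen.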

How the data were processed

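The authors removed ribosomal RNA from the marrow RNA of 12 mice and sequenced strand-specific libraries. The reads were filtered with Seqtk and mapped with Hisat2 to GRCm38.p4, and the submitters' processing notes name HISAT2 and mm10. The program that counted reads, its use of strand and its annotation are not given in the sources used here, so antisense reads cannot be separated. The authors deposited read counts per gene, as whole numbers without normalization, and FPKM, which the authors computed from fragments, transcript length and depth. All 24 columns were used and 0 were left out. Depth was 11172547 to 18545198 counts, and it bounds counting error only.

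Counts were tested with edgeR 4.0.16 in R 4.3.3 (TMM, filterByExpr, robust quasi-likelihood fits, 2 groups per fit), with Benjamini-Hochberg adjustment over all genes tested, and FPKM was used for levels between genes. The study's fold cutoff was kept, with an adjusted p in place of an unadjusted one. Log2 CPM had a prior count of 2. Relative levels were compared by exact permutation tests. The genes named were the 8, the 4 of highest mean FPKM in each list, list genes of the skeleton and blood groups called against the direction of the 8, of which there were 0 in model against normal, and the 5 most like the 8 (mean CPM of at least 10, unnamed gene models left out). A few genes that this rule names are not reported here. The 8 genes and the lists were chosen with earlier results of these data known. As alternatives, the comparisons were run with DESeq2 1.42.0 (no filter), with DESeq2 size factors, total counts, or TMM without red cell genes, with no filter on counts, with a minimum of 10 counts per library, with 1 fit of all 12 libraries, with a replicate block, with limma 3.58.1 on log2(FPKM + 0.1) and with each library left out. Leaving out model 1, QJSB 1 and leucogen 2 together was added after the data were seen. Libraries of the same number deviated together in QJSB and model (r = 0.45, 0.13 and 0.10) and in QJSB and leucogen (r = 0.17, 0.16 and 0.11) but not in the other comparisons, and the labels give no shared source.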

Additional observations from a re-analysis of the deposited data

How the results depend on the processing

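The fall of the 8 genes against normal kept its direction and call under every alternative in which a gene was tested. The log2 fold changes ran from -7.48 to -4.65 in model (highest adjusted p 0.0175), from -6.89 to -4.01 in QJSB (0.0362) and from -7.67 to -5.38 in leucogen (0.0309). With at least 10 counts in every library, Rhd was not tested in comparisons with leucogen. The number of the 8 called in QJSB against leucogen was 0, but ran from 0 to 2 with 1 library left out and was 1 (Sptb, log2 fold change 1.45, edgeR adjusted p = 0.0448) without model 1, QJSB 1 and leucogen 2. With the replicate block, 8 genes were called in each comparison with normal and 0 in the others, so no call changed. In QJSB against model the block moved Slc4a1 from -0.05 to 0.21 and Ermap, the highest of the 8, from 0.95 to 0.497, and limma on FPKM gave Ermap 0.37.

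Among the groups given cyclophosphamide, the sign of 5 differences was kept under every alternative, from -1.62 to -0.104 for Sptb in leucogen against model and, in QJSB against leucogen, from 0.49 to 2.04 for Slc4a1, 0.71 to 1.77 for Sptb, 0.046 to 1.95 for Ank1 and 0.056 to 2.39 for Ermap. The sign of the others turned under at least 1 alternative. In QJSB against model, Kel was -0.014 with total counts and -0.073 with limma on FPKM, and Slc4a1 was 0.13 with limma. Without model 1, QJSB 1 and leucogen 2, Slc4a1 was 0.89 and Epb42 0.39. With 1 library left out, QJSB against model ran from -0.45 to 1.196 for Slc4a1, -0.17 to 0.94 for Sptb, -0.59 to 1.35 for Ank1, -0.65 to 0.72 for Epb42, -0.54 to 1.65 for Rhag, -0.73 to 1.42 for Rhd, -0.49 to 1.57 for Ermap and -0.79 to 0.88 for Kel. Leucogen against model ran from -2.09 to 0.35 for Slc4a1, -1.51 to 0.27 for Ank1, -1.83 to 0.44 for Epb42, -1.67 to 0.76 for Rhag, -1.44 to 0.64 for Rhd, -1.45 to 0.075 for Ermap and -1.31 to 0.49 for Kel. QJSB against leucogen ran from -0.18 to 1.51 for Epb42, -0.199 to 2.22 for Rhag, -0.053 to 1.56 for Rhd and -0.45 to 1.36 for Kel. The genes called over all genes in QJSB against model were 0, and 8 with DESeq2, 18 with the replicate block and 23 without model 1, QJSB 1 and leucogen 2. The cause of these changes was not tested. Rhd was read at 6 to 72 counts in the model and leucogen libraries.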

Other observations

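Other cells of the marrow moved in their own ways in the same libraries. Of 8 markers of B cells, 7 were called lower in model than in normal by edgeR and 8 of 8 in QJSB and in leucogen, with median log2 fold changes of -5.02, -7.19 and -7.90. Of all genes tested against normal, 19% were called lower and 16.1% higher in model, with 19.9% lower in QJSB and 19.8% in leucogen. Cd79b, a signalling chain of the B cell receptor, was at -4.41 in model, Cd79a at -5.53 and Ebf1 at -4.72. Of 8 markers of marrow macrophages, which include the cells that nurse erythroblasts and recycle their iron, 6 were called lower in model and 0 higher (median -1.405). C1qb fell by 1.49, Hmox1, which breaks down haem, by 1.43 and the iron exporter Slc40a1 by 1.14, while Vcam1 was at -0.58 and did not pass the fold cutoff. In leucogen Slc40a1 was at 0.04 against normal.

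Of 10 neutrophil genes, 3 were called lower and 3 higher in model against normal, beside 19% and 16.1% over all genes tested. Elane, a protease of early granules, rose by 2.67 in log2 terms, and S100a8 (-0.54), S100a9 (-0.58) and Ngp (-0.88) did not pass. In leucogen against model 7 of the 10 were called higher and 3 lower, beside 11.6% and 11.5% over all genes tested. S100a8 rose by 2.34 and S100a9 by 2.32, in the comparison in which 0 of the 8 red cell membrane genes were called. Of the megakaryocyte markers Gp9 alone was called lower in QJSB (-0.68) and in leucogen (-1.05) against normal, with Ppbp (-0.05), Pf4 (0.11) and Itga2b (0.06) near 0 in model. The muscle markers Acta1 (-0.38), Ckm (-0.61), Mylpf (-0.54) and Pvalb (-0.67) did not pass in model against normal.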
